A study of Mus musculus with 12 samples.

Results

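The table of read counts held 24108 rows, and 87 of them were cytosolic ribosomal protein genes or their close relatives. These rows were taken by name: symbols that begin with Rpl or Rps and go on with a digit, without the Rps6k kinases and without rows marked as pseudogenes, together with Rpsa, Rplp0, Rplp1 and Rplp2. Of the 87 rows, 46 encode proteins of the large ribosomal subunit, 31 encode proteins of the small subunit and 9 are paralogues such as Rps27l and Rpl22l1. The remaining 1, Rps19bp1, encodes a protein that binds Rps19 and is not itself part of the ribosome.

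RNA was sequenced from neural progenitor cells (NPCs) of the subventricular zone of C57BL/6 mice aged P9 to P12, in 4 groups of 3 libraries. All NPCs were p53LoxP/LoxP and all had received an adenovirus: Ad-CMV-iCre, which deletes p53, gave the p53-/- cells, and Ad-CMV-Null, which carries no recombinase, gave the p53+/+ cells. Each genotype was grown for 48 h either alone on laminin or in co-culture on a monolayer of brain microvascular endothelial cells (bmvEC), from which the NPCs were then lifted by selective trypsinization. Each library carries the number 17_9, 25_9 or 1_10, with 1 library of each group per number, and the study's key pairs identical numbers. The sample titles give repeat numbers only. For short, libraries that share a number are called an experiment here, and values in triplets below follow that order. Deletion was made in culture, so a culture can hold cells that kept the gene. Trp53 (p53) stood at 61.8 to 109 CPM (reads of a gene scaled to library size) in the 6 p53+/+ libraries and at 11.7 to 19.3 CPM in the 6 p53-/- libraries, and its target Cdkn1a at 350.2 to 458 CPM against 4.74 to 31.2 CPM, so neither gene overlapped between genotypes.

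Endothelial RNA was carried into the co-culture libraries. The summed level of 12 endothelial markers was 13.9 to 19.0 CPM in the 6 libraries of NPCs alone and 99.6 to 180.0 CPM in the 6 co-culture libraries, and all 12 were called higher in co-culture in both genotypes. Cdh5 (VE-cadherin), a defining endothelial gene, was at 0 to 0.099 CPM alone and at 18.8 to 37.2 CPM in co-culture. The summed level of 6 NPC and astroglial markers was 9542 to 14342 CPM alone and 14802 to 28314 CPM in co-culture. These 6 did not move together. Gfap, at a log2 fold change of 4.6 in both genotypes, and Slc1a3 were called higher in co-culture. Nes was called lower, at -0.96 in p53+/+ and -0.66 in p53-/- NPCs, and Fabp7 was called lower in p53-/- NPCs only. Such sums do not measure how much RNA came from each cell type. The endothelial carry-over stands beside every co-culture result below, and its part in those results was not tested. Because whole cultures were sequenced, less of a transcript per cell and fewer of the cells that make it cannot be told apart.

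A ribosome is built from a small subunit, which reads the mRNA, and a large subunit, which joins amino acids. Cells make their protein components in matched amounts, and the mRNAs for nearly all of them begin with a short pyrimidine tract, the 5′ terminal oligopyrimidine (TOP) motif, through which mTORC1 and LARP1 control their translation. Ribosomal proteins are also tied to p53: when ribosome assembly is disturbed, free Rpl5 and Rpl11 bind the ubiquitin ligase Mdm2 and p53 is stabilised, and Rps27l is a transcriptional target of p53.

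The start sites of these genes were searched for pyrimidine runs nearby, which need not begin the mRNA. RefSeq promoter sequences (assembly GRCm38.p6, from 250 bases before to 50 bases after the annotated start) were found for 66 of the 87 symbols. On the transcribed strand, within 50 bases on either side of the start, 53 of these 66 (80.3%) held a C followed by an unbroken run of at least 7 further C or T, against 32.0% of the 27025 genes in the promoter table. The run was present for 31 of 34 matched large-subunit genes and for 17 of 23 matched small-subunit genes. Windows of 30 bases are given for genes on which the results turn, each 5′ to 3′ on the transcribed strand with the run nearest to the start in capitals; the Rps27l window opens with another such run, left in lower case. Rps25 showed the largest called rise with p53 loss, Rps6 is the classical target of S6 kinase, and the pairs Rpl22 and Rpl22l1, and Rps27 and Rps27l, are paralogues that were counted separately.
Rps25: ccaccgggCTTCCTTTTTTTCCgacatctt
Rps6: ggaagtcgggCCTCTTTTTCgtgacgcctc
Rpl22: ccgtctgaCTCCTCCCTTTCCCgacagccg
Rpl22l1: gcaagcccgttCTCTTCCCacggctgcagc
Rps27: ttccgctttcgCTCCTTTCCggcggtgacg
Rps27l: actcctctccaCTCCTCCCCgccgcctcta
These windows lie at chr9:44407684-44407713 on the plus strand for Rps25, chr4:86857349-86857378 on the minus strand for Rps6, chr4:152325679-152325708 on the plus strand for Rpl22, chr3:28805500-28805529 on the plus strand for Rpl22l1, chr3:90213632-90213661 on the minus strand for Rps27 and chr9:66946063-66946092 on the plus strand for Rps27l. All lie within 50 bases of the annotated transcription start, in the promoter or across the border to the first exon. Relative to that start, the run in capitals lies before it for Rps25 (-22 to -9), Rpl22 (-39 to -26) and Rps27l (-12 to -4). It lies across the start for Rps6 (-1 to 8) and Rps27 (-2 to 6), and after it for Rpl22l1 (3 to 10). Runs before the start are outside the annotated mRNA, so the counts are not counts of TOP motifs. Both paralogues carry such a run, as their parent genes do. A match describes these letters only.

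Ribosomal protein mRNAs made up a few percent of all counted reads, and their share moved with the culture and the genotype. Total counts ranged from 16509710 to 22245224 per library. In p53+/+ NPCs the 87 genes took 3.15%, 3.78% and 3.57% of the counts alone, a mean of 3.50% ± 0.32 (SD, n = 3), and 2.21%, 2.73% and 2.40% in co-culture, a mean of 2.45% ± 0.26 (SD, n = 3). In p53-/- NPCs they took 5.09%, 4.25% and 4.31% alone, a mean of 4.55% ± 0.47 (SD, n = 3), and 3.02%, 3.13% and 2.91% in co-culture, a mean of 3.02% ± 0.11 (SD, n = 3). The share was thus lowest in p53+/+ co-culture and highest in p53-/- NPCs alone, and in each genotype the 3 co-culture libraries lay below the 3 libraries of NPCs alone. Small-subunit genes held 0.710 ± 0.006 times the counts of large-subunit genes in p53+/+ NPCs alone and 0.679 ± 0.013 times in co-culture (SD, n = 3). In p53-/- NPCs the same ratio was 0.744 ± 0.015 alone and 0.717 ± 0.002 in co-culture (SD, n = 3).

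The library of p53-/- NPCs alone from experiment 17_9 stood apart. For each of 81 genes with enough counts to be tested, the log2(CPM + 1) of a library was taken relative to the gene's own mean over the 12 libraries. The median of this deviation was 0.68 in that library, against 0.34 and 0.42 in the other 2 libraries of its group, and 73 of the 81 genes had their highest level there. At the other end, the p53+/+ co-culture library of the same experiment had a median deviation of -0.54 and held the lowest level of 57 genes. In experiment 17_9 both libraries of NPCs alone also had the highest summed level of 6 mural and fibroblast markers, 436 CPM in p53+/+ and 776 CPM in p53-/-, against 38.0 to 70.0 CPM in the other 4 libraries of NPCs alone. Nearly all of this was Acta2, a smooth-muscle actin, and its part in the results was not tested.

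**Figure D1:**
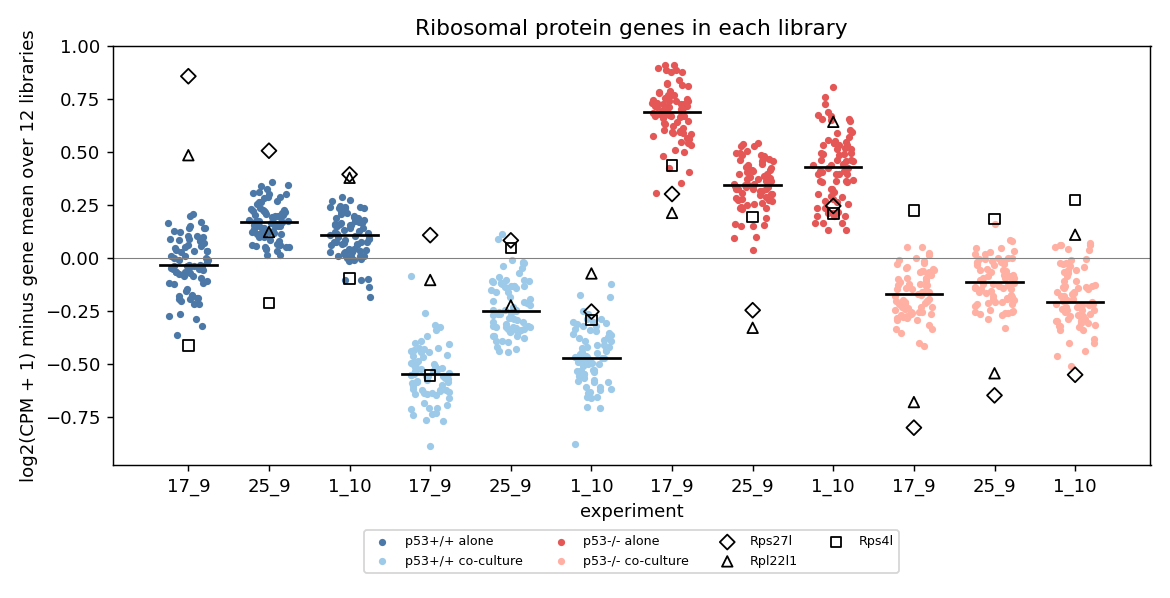
Each point is 1 ribosomal protein gene in 1 library, plotted as log2(CPM + 1) minus the mean of that gene over the 12 libraries, with libraries grouped by condition and named by experiment; bars are medians of the genes drawn as points, and open symbols mark Rps27l, Rpl22l1 and Rps4l. Rps27 and Rpl34, at 17 counts or fewer, are left out. The points sit highest in p53-/- NPCs alone and lowest in p53+/+ co-culture, while Rps27l lies above the others in p53+/+ NPCs alone and below them in p53-/- co-culture.

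Most members were abundant, but 8 were at or near 0. Per kilobase of the principal transcript, the highest levels in p53+/+ NPCs alone were those of Rpl23a at 1163 ± 99.99, Rps2 at 1067 ± 157, Rps4x at 949.9 ± 37.8, Rplp1 at 905 ± 168 and Rpl41 at 894 ± 169 CPM per kb (SD, n = 3). Rpl23a sits at the exit of the polypeptide tunnel, Rps2 and Rps4x on the small subunit, and Rplp1 in the flexible stalk that recruits elongation factors. Neighbours in this order differed by less than the larger of their SDs. Rpl3l, Rpl10l, Rpl39l and Rps27rt are paralogues with restricted expression, and none had more than 8 counts in any library, with Rpl10l and Rps27rt at 0 in all 12. Rpl26, Rpl30, Rpl34 and Rps27 encode proteins that every ribosome contains, yet Rpl26 had 1 count over all 12 libraries, Rpl30 had 1 to 9, Rpl34 had 2 to 15 and Rps27 had 4 to 17. For such genes the table cannot stand for the amount of mRNA in the cells, and their changes are not described singly here. Of the 8, Rpl34 and Rps27 passed the filter on low counts and so enter the counts and medians over the 81 tested members, and the other 6 were not tested.

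Reads of ribosomal protein genes are prone to match processed pseudogenes. As a measure of this, every stretch of 100 bases, the read length, in the protein-coding transcripts of each member (GENCODE M21, available for 86 members) was looked up in the transcripts of all other genes. The median share of stretches found elsewhere was 24.4%. It was 0% for 9 members, among them Rps27l, Rpl22, Rps3 and Rps21, and above 50% for 21 members, among them Rps6 at 83.6%, Rpl5 at 82.7% and Rpl23a at 80.0%. How the aligner and the counter treated such reads is not given in the sources used here, so the levels of these genes are uncertain. For the near-zero genes the share was 5.79% for Rpl34, 19.1% for Rpl26, 40.1% for Rps27 and 57.8% for Rpl30, within the range of the abundant members. The lookup covered annotated transcripts only, and the part of shared sequence in the near-zero counts was not tested. Sequencing was paired-end, and the lookup took single reads without their mates. Among 73 subunit genes above 2 on the log2 CPM scale, the median fold changes of the 19 genes over 50% and of the 54 others were close in each comparison, at -0.52 and -0.50 log2 units for co-culture in p53+/+ NPCs and at 0.39 and 0.45 for p53 loss in NPCs alone.

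**Figure D2:**
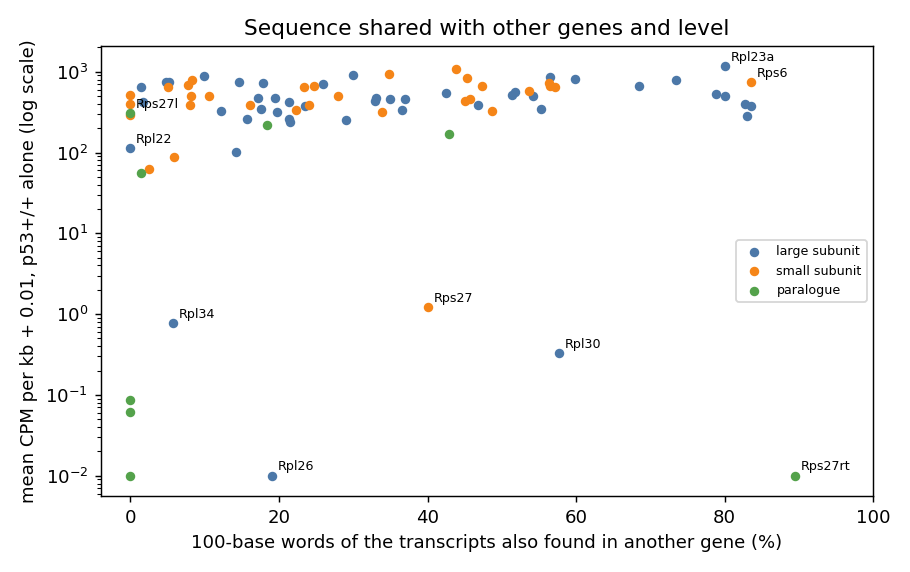
Each point is 1 member, with the percentage of its 100-base transcript stretches that also occur in another gene on the horizontal axis and its mean level in p53+/+ NPCs alone, as CPM per kb plus 0.01 on a log scale, on the vertical axis. High levels occur from 0% to 83.6%, and Rpl26, Rpl30, Rpl34 and Rps27 lie far below the other subunit genes at values between 5.79% and 57.8%.

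Contact with endothelial cells went with lower ribosomal protein mRNA in p53+/+ NPCs, and the fall was shared by nearly the whole set. Of 81 members tested with the quasi-likelihood test of edgeR, 60 were called lower in co-culture and 0 were called higher at an adjusted p under 0.05. Over all 13745 genes tested, 18.3% were called lower and 21.2% higher. At an unadjusted p under 0.05, 70 members were lower and 0 higher. The share of all genes at an unadjusted threshold was not counted, here or below, so such counts stand without a background. The median log2 fold change of the members was -0.50, or 0.706-fold, against 0.00 over all genes, and all 81 estimates were negative. The quartiles of these estimates were -0.58 and -0.42. The 3 libraries of each condition did not overlap for 59 members, all lower in co-culture, where 25.7% of all genes were separated in that direction.

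The members with the largest falls in p53+/+ NPCs came from both subunits. Rpsa, the laminin receptor-related protein of the small subunit, was at 1088, 1375 and 1315 CPM alone and at 638, 937 and 775 CPM in co-culture. All 3 co-culture libraries lay below all 3 libraries of NPCs alone, and the log2 fold change was -0.68 ± 0.16 (SE, adjusted p = 0.00506). Rpl12, at the base of the stalk of the large subunit, was at 436, 506 and 489 CPM alone and at 260.4, 357 and 283 CPM in co-culture, a log2 fold change of -0.67 ± 0.15 (SE, adjusted p = 0.00315). Rps2, Rps3a1, Rps16, Rpl10 and Rps27a fell by 0.63 to 0.67 on the log2 scale, and none of their groups overlapped.

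Several members changed less in p53+/+ NPCs and did not pass the test. For Rpl22 the log2 fold change was -0.23 ± 0.11 (SE, adjusted p = 0.10), for Rps14, on the platform of the small subunit, -0.24 ± 0.15 (SE, adjusted p = 0.22), and for Rps4x -0.30 ± 0.12 (SE, adjusted p = 0.056). Rplp1 and Rplp2, the acidic stalk proteins, had estimates of -0.49 ± 0.22 and -0.40 ± 0.19 (SE), close to the median but with libraries that overlapped between conditions. The count of members called lower was 39 without the p53+/+ co-culture library of 17_9, 29 without the whole of experiment 25_9 and 37 without that of 1_10. The share of all genes called was not counted in fits that left out a library or an experiment, here or below.

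In p53-/- NPCs co-culture went with a fall of the same kind. Here 74 of 81 members were called lower and 0 higher, against 17.0% of all genes called lower and 18.8% called higher, and 78 members were lower at an unadjusted p under 0.05. The median log2 fold change was -0.65, or 0.639-fold, against -0.01 over all genes, and again all 81 estimates were negative. The conditions did not overlap for 76 members, all lower in co-culture, compared with 21.5% of all genes in that direction. The 7 members not called were Rpl22l1, Rpl34, Rplp1, Rplp2, Rps27, Rps29 and Rps4l.

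Rpl12 fell most in p53-/- NPCs, from 811, 584 and 682 CPM alone to 345, 383 and 379 CPM in co-culture. Every co-culture library lay below every library of NPCs alone, and the log2 fold change was -0.91 ± 0.15 (SE, adjusted p = 0.00062). Rpl17, which lines the exit tunnel, went from 605, 495 and 669 CPM to 319, 317 and 325 CPM, a log2 fold change of -0.88 ± 0.12 (SE, adjusted p = 0.000174). Co-culture libraries of both genes were close to each other, and most of the spread lay among the libraries of NPCs alone. Rps2, Rpl36al, Rps16, Rpl13a and Rps19 fell by 0.81 to 0.86 on the log2 scale. Rps19 is the gene most often mutated in Diamond-Blackfan anaemia, and of 17 tested genes linked to that disease 15 were called lower in p53-/- and 13 in p53+/+ NPCs. These counts lie near the 91.4% and 74.1% of all tested members called lower, where 17.0% and 18.3% of all genes were called lower. They are not a result about the disease genes. Without experiment 17_9, which holds the library that stood apart, 48 members were called lower.

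The size of the fall varied between experiments. The median log2 ratio of co-culture to alone over the 81 members was -0.54, -0.41 and -0.57 in p53+/+ NPCs, with 80 to 81 members below 0 in each experiment. In p53-/- NPCs it was -0.85, -0.45 and -0.62, with 79 to 81 members below 0. Over all genes tested the medians were between -0.02 and 0.02 in all 6 cases.

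**Figure D3:**
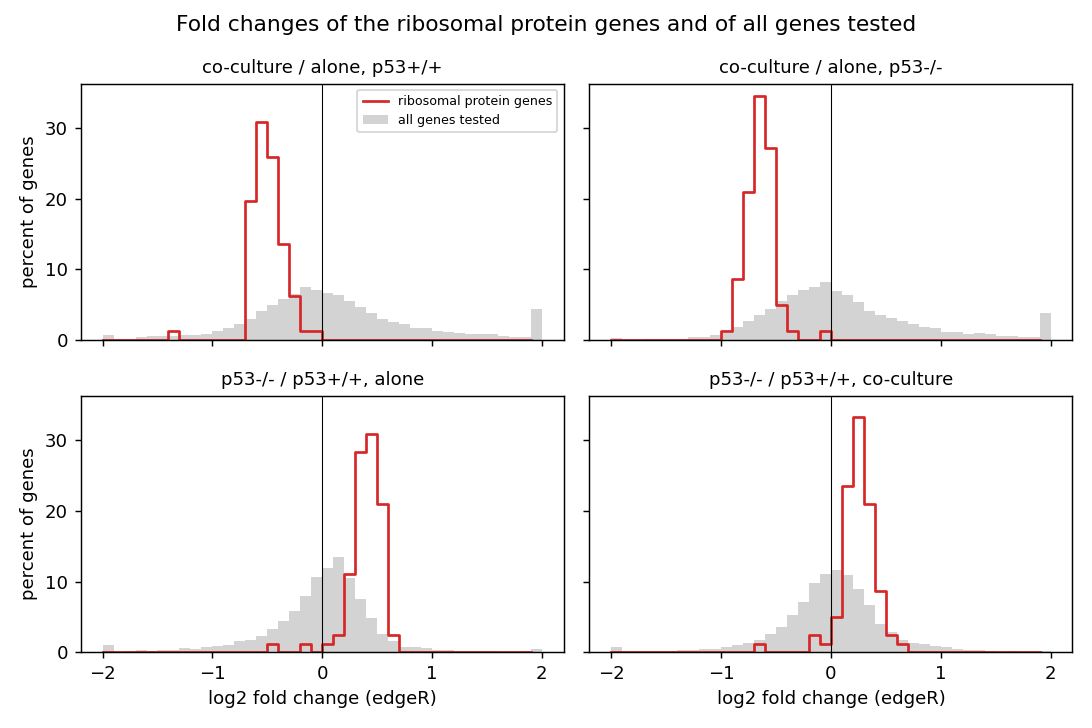
Each panel shows the percentage of genes per step of 0.1 in log2 fold change for all 13745 genes tested (grey bars) and for the 81 tested ribosomal protein genes (red line); values beyond 2 are drawn in the outermost bars. The line is narrow and lies left of 0 for co-culture in both genotypes, with medians of -0.50 and -0.65, and right of 0 for p53 loss, with medians of 0.41 alone and 0.24 in co-culture.

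Loss of p53 in NPCs alone went with higher ribosomal protein mRNA, but fewer genes passed the test. Of 81 members 17 were called higher and 0 lower, against 2.02% and 4.27% of all genes. At an unadjusted p under 0.05, where the share of all genes was not counted, 66 were higher and 1, Rps27l, was lower. The median log2 fold change was 0.41, or 1.33-fold, against 0.05 over all genes, with 79 of 81 estimates above 0. The genotypes did not overlap for 56 members that were higher in p53-/- and for 1 that was lower, where 15.0% and 12.4% of all genes were separated in those directions. The called genes, 9 of the small and 8 of the large subunit, included Rps25, Rps27a, Rps16, Rpl12, Rps13, Rps24, Rps23, Rps3, Rpl35, Rpl35a, Rpl17, Rpl13a, Rpl32, Rpl27a, Rps7 and Rpl23a. Of 5 tested mural and fibroblast markers 2 were also called higher with p53 loss alone and 0 lower, Pdgfrb, a receptor of pericytes, at 1.16 ± 0.32 and Col1a1, a collagen gene, at 1.40 ± 0.38 (log2 fold change, SE). The summed level of the list of 6 was 46.9 to 436 CPM in p53+/+ and 38.0 to 776 CPM in p53-/- NPCs alone, and its part in the rise of the members was not tested.

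Rps25, a small-subunit protein needed by several viral internal ribosome entry sites, was at 418, 419 and 412 CPM in p53+/+ and at 698, 514 and 695 CPM in p53-/- NPCs. The genotypes did not overlap, and the log2 fold change was 0.61 ± 0.13 (SE, adjusted p = 0.0129). Rps27a, made as a fusion with ubiquitin, was at 465, 454 and 453 CPM in p53+/+ and at 801, 543 and 695 CPM in p53-/- NPCs, a log2 fold change of 0.57 ± 0.14 (SE, adjusted p = 0.0307). Rps13 was at 290.0, 293 and 296 CPM in p53+/+ and at 477, 370.1 and 420.3 CPM in p53-/- NPCs, a log2 fold change of 0.53 ± 0.12 (SE, adjusted p = 0.0225). In all 3 genes the p53+/+ libraries lay almost on top of each other, while the p53-/- libraries were spread, with 17_9 highest. Rps16, Rpl12, Rps24, Rps23 and Rps3 rose by 0.51 to 0.55 on the log2 scale (adjusted p from 0.0229 to 0.0454).

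The number of these calls varied with the model and with the libraries fitted. The main fit and the fits that left out a library or an experiment did not hold the experiment as a block. With the experiment as a block 46 members were called higher and 0 lower, where 7.25% and 9.33% of all genes were called. Fitted to the 6 libraries of NPCs alone, 0 members were called in either direction, where 0.329% of all genes were called higher and 2.34% lower. Without the p53-/- library of 17_9 that stood apart 1 member was called higher, without that of 1_10 0 and without that of 25_9 18. Without any 1 of the p53+/+ libraries of NPCs alone 1 or 2 were called, without any 1 of the co-culture libraries 5 to 10 and without any whole experiment 0. The share of all genes called was not counted in these leave-out fits, so their counts stand without a background. The median over the members stayed above 0 in all 15 fits that left out a library or an experiment, at 0.22 to 0.53. By experiment the median log2 ratio was 0.73, 0.17 and 0.30, so that 25_9 showed less than 17_9.

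In co-culture the same comparison of genotypes gave smaller values. Only Rps13 was called higher and only Rps27l lower, against 3.24% and 4.93% of all genes. The median log2 fold change was 0.24, or 1.18-fold, against 0.02 over all genes, and 77 of 81 estimates were above 0. The genotypes did not overlap for 36 members that were higher in p53-/- and for 1 that was lower, where 14.4% and 16.9% of all genes were separated in those directions. By experiment the median log2 ratio was 0.36, 0.11 and 0.26, and in the 15 fits that left out a library or an experiment the median log2 fold change was 0.16 to 0.31. At an unadjusted p under 0.05, 24 members were higher and 1 lower. Rps13 was at 179, 228 and 200.3 CPM in p53+/+ and at 269, 283 and 302 CPM in p53-/- co-culture, and its log2 fold change was 0.49 ± 0.12 (SE, adjusted p = 0.0265). The libraries of the genotypes did not overlap, and the gene was called in 8 of the 15 leave-out fits. With the experiment as a block 11 members were called higher and 1 lower, where 9.99% and 10.9% of all genes were called. Endothelial markers were at 112 to 180.0 CPM in p53+/+ and 99.6 to 120.1 CPM in p53-/- co-culture, and the part of that difference was not tested.

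The difference between the co-culture effects in the genotypes was tested directly as an interaction, with 0 members called in edgeR at the adjusted threshold and 0 at an unadjusted p under 0.05, against 5 of all 13745 genes called lower (0.0364%) and 0 higher (0.0%). DESeq2 also called 0 members. The median interaction was -0.15 log2 units, against -0.02 over all genes, and 79 of 81 estimates were below 0. By experiment the median was -0.32, -0.05 and -0.05, with 80, 62 and 53 members below 0. Over the 15 leave-out fits it ran from -0.21 to -0.04. For single genes the 95% interval was wide: for Rpl12 the interaction was -0.24, with an interval from -0.64 to 0.16, so that values on both sides of 0 were compatible with the counts.

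Set against each other rather than against all genes, few members departed from the rest. Each library was scaled to the summed counts of the members, so that a fold change says how a gene moved relative to the ribosomal protein genes as a whole. On this scale 1 member was called in each pairwise comparison and 0 in the interaction. Rps4l was called higher in co-culture in both genotypes, where 49.3% and 59.0% of all genes were called higher, and Rps27l was called lower with p53 loss alone and in co-culture, where 19.5% and 13.2% of all genes were called lower. The estimates of the 73 abundant subunit genes in the ordinary fit had an SD over genes of 0.11 log2 units in p53+/+ co-culture and 0.10 for p53 loss alone, at a median SE of 0.13 for 1 gene. The spread over genes was thus no larger than the error of a single estimate. That error includes shifts between libraries that the members share, so this does not show that single members lack differences of their own. Over the 15 leave-out fits the call of Rps4l held in 9 for p53+/+ and in 14 for p53-/- NPCs, and in 1 of the others for p53+/+ Rpl22 was called instead.

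Rps27l, the paralogue of Rps27 and a target of p53, departed from the others. It was at 182, 142 and 132 CPM in p53+/+ NPCs alone, at 108, 106 and 83.5 CPM in p53+/+ co-culture, at 123, 83.9 and 118 CPM in p53-/- NPCs alone and at 56.8, 63.2 and 67.7 CPM in p53-/- co-culture. The level was highest in p53+/+ NPCs alone and lowest in p53-/- co-culture, with no overlap between these groups. With p53 loss its log2 fold change was -0.48 ± 0.17 alone (SE, adjusted p = 0.11) and -0.66 ± 0.17 in co-culture (SE, adjusted p = 0.0321), where most estimates of the members were above 0. Relative to the summed members these values were -0.91 (adjusted p = 0.00628) and -0.93 (adjusted p = 0.00741), called in 14 and 13 of the 15 leave-out fits. The ordinary call in co-culture held in 7 of these 15 fits. The relative call in NPCs alone was lost without experiment 25_9, and that in co-culture without experiment 25_9 or without the p53+/+ co-culture library of 17_9. Co-culture went with a fall of Rps27l like that of the other members, -0.62 ± 0.17 in p53+/+ (SE, adjusted p = 0.0117) and -0.79 ± 0.17 in p53-/- NPCs (SE, adjusted p = 0.00357). None of its 100-base stretches occurred in another gene. Its parent Rps27, at 4 to 17 counts, could not be compared with it.

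Rpl22l1 was the other paralogue that did not rise with p53 loss. It was at 105, 81.1 and 97.0 CPM in p53+/+ and at 86.4, 59.0 and 117 CPM in p53-/- NPCs alone, with overlapping libraries and a log2 fold change of -0.11 ± 0.24 (SE, adjusted p = 0.81). Its co-culture levels were 69.1, 63.5 and 70.7 CPM in p53+/+ and 46.0, 50.7 and 80.4 CPM in p53-/- NPCs, a log2 fold change of -0.20 ± 0.24 (SE, adjusted p = 0.64). With the experiment as a block it was called lower relative to the summed members with p53 loss alone. Its parent Rpl22 had the smallest called fall in p53-/- co-culture, -0.39 ± 0.11 (SE, adjusted p = 0.0141).

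**Figure D4:**
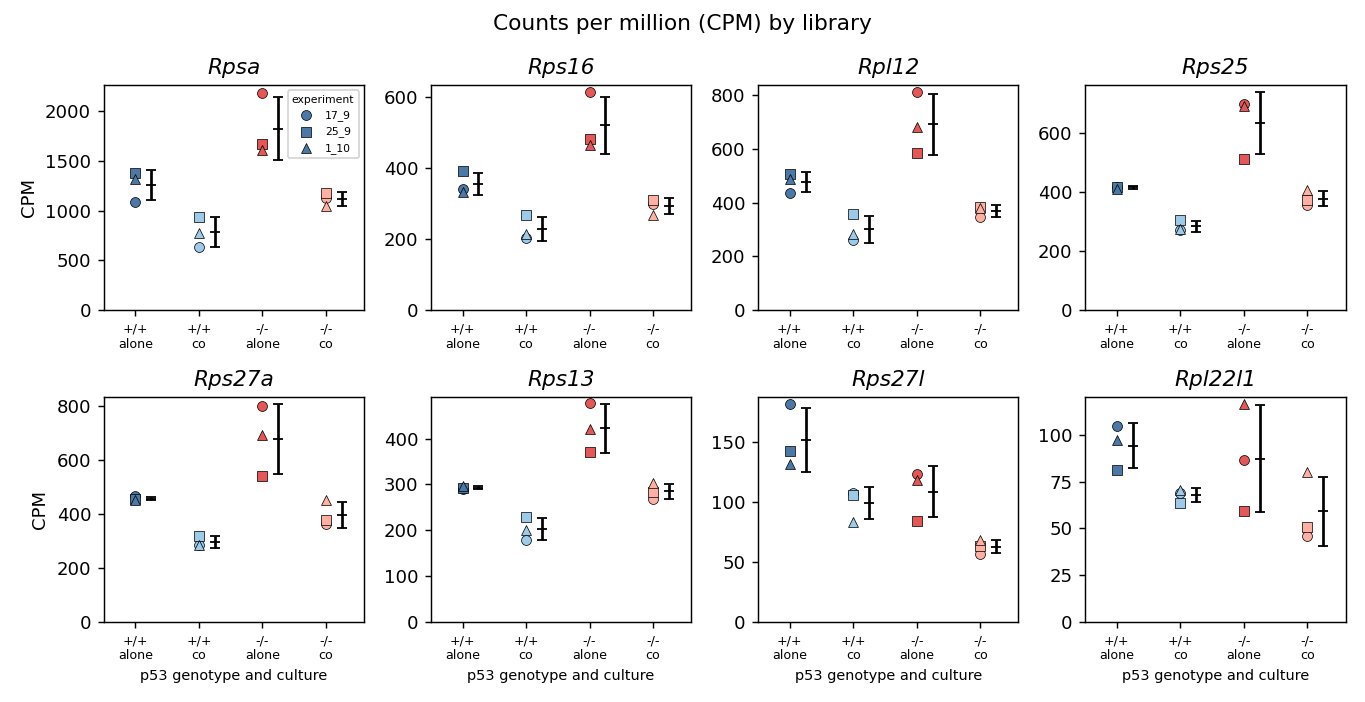
CPM of 8 members in every library, with symbols for the 3 experiments and bars for the mean ± SD (n = 3) of each group; "co" stands for co-culture, and each axis starts at 0. Rpsa to Rps13 are lowest in p53+/+ co-culture and highest in p53-/- NPCs alone, whereas Rps27l is lowest in p53-/- co-culture.

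The other paralogues followed their parents or were scarce. Rpl7l1, which acts in ribosome assembly, was called lower in co-culture in both genotypes, at -0.44 ± 0.11 and -0.61 ± 0.11 (SE), beside -0.50 ± 0.12 and -0.60 ± 0.12 for Rpl7. Rpl36al, an autosomal copy of the X-linked Rpl36a, was at -0.55 ± 0.13 and -0.84 ± 0.13 (SE), beside -0.52 ± 0.13 and -0.62 ± 0.13 for Rpl36a. Rps4l, at 6.65 to 14.2 CPM, was the scarcest paralogue tested, and its values did not follow Rps4x. Its log2 fold change with co-culture was -0.01 ± 0.18 in p53+/+ and -0.06 ± 0.18 in p53-/- NPCs (SE), and with p53 loss 0.57 ± 0.18 alone and 0.52 ± 0.18 in co-culture (SE, adjusted p = 0.086 and 0.0996). No GENCODE protein-coding transcript carries its symbol, so the sequence it shares with Rps4x was not measured. Rps19bp1, which is no ribosomal protein, had -0.21 ± 0.16 and -0.59 ± 0.16 with co-culture (SE, adjusted p = 0.32 and 0.0130).

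Grouped by role, the calls with co-culture were spread over the parts of the ribosome. They are to be read beside the 74.1% of all tested members called lower in p53+/+ and the 91.4% in p53-/- co-culture, and beside 18.3% and 17.0% of all genes. All 7 tested genes of the exit tunnel, such as Rpl17 and Rpl23a, were called lower with co-culture in both genotypes, as were both proteins of the 5S particle. Rpl5 went from 805, 794 and 816 CPM to 498, 561 and 532 CPM in p53+/+ NPCs (log2 fold change -0.60 ± 0.13, SE, adjusted p = 0.00315), with no overlap. Rpl11 went from 399, 462 and 433 CPM to 293, 359 and 295 CPM (log2 fold change -0.45 ± 0.13, SE, adjusted p = 0.0160). Of the 5 Mdm2-binding proteins, which besides Rpl5 and Rpl11 are Rpl23, Rps7 and Rps14, 4 were called lower in p53+/+ and 5 in p53-/- co-culture, and Rps7 was called higher with p53 loss alone. In the stalk 2 of 4 genes, Rplp0 and Rpl12, were called lower in both genotypes. Of 7 genes around the decoding site and mRNA channel 6 were called lower in p53+/+ and 7 in p53-/- co-culture. Small-subunit genes had a median log2 fold change with co-culture of -0.55 in p53+/+ and -0.68 in p53-/- NPCs, and large-subunit genes -0.48 and -0.62.

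Genes outside the set that share its regulation or its task were counted for comparison. Among all genes, 18.3% (p53+/+) and 17.0% (p53-/-) were called lower with co-culture, 21.2% and 18.8% were called higher, and 2.02% to 4.93% were called in either direction with p53 loss. Fau, whose product is a ribosomal protein fused to a ubiquitin-like protein, was not called in any comparison, with log2 fold changes with co-culture of -0.17 ± 0.18 in p53+/+ and -0.38 ± 0.18 in p53-/- NPCs (SE). Of 22 tested elongation factors and other TOP genes, 15 were called lower in p53+/+ and 14 in p53-/- co-culture, and 0 were called with p53 loss. Gnb2l1, which encodes the ribosome-bound scaffold Rack1, fell by 0.72 and 0.79 on the log2 scale (adjusted p = 0.000884 and 0.000652), and Btf3, a nascent-chain binding factor, by 0.59 and 0.66. Of 28 initiation factor genes 17 were called lower and 1 higher in p53+/+ co-culture, and 21 lower and 0 higher in p53-/- co-culture, among them the helicase Eif4a1 at -0.59 ± 0.14 and -0.69 ± 0.14 (SE). Mitochondrial ribosomal protein genes gave other counts: 4 of 77 were called lower in p53+/+ and 31 of 77 in p53-/- co-culture. Their medians were -0.07 and -0.34, and 0 were called with p53 loss. Of the initiation factor genes 0 were called with p53 loss either. For p53 loss in NPCs alone, medians were 0.31 for elongation and other TOP genes, 0.32 for initiation factors and 0.26 for mitochondrial ribosomal genes. The members had 0.41 and all genes 0.05, so each list lay between them. In co-culture the lists had, in the same order, 0.19, 0.16 and -0.03, beside 0.24 for the members and 0.02 for all genes.

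Among 16 regulators of TOP mRNAs and of ribosomal gene transcription, calls went both ways, with 2 higher and 5 lower in p53+/+ and 3 higher and 4 lower in p53-/- co-culture. With so few genes these counts lie near the shares of all genes given above, and they are not a result about the list. Myc and Mycn, transcription factors that activate ribosomal protein genes, were called lower in co-culture, Myc by -0.85 ± 0.19 in p53+/+ and -0.90 ± 0.19 in p53-/- NPCs and Mycn by -2.25 ± 0.39 and -1.67 ± 0.37 (log2 fold change, SE). Of their antagonists, Mxi1 was called higher in p53+/+ co-culture at 0.98 ± 0.19 and Mxd4 in p53-/- co-culture at 0.87 ± 0.20. Larp1, the TOP regulator, was called lower in p53+/+ co-culture at -0.41 ± 0.10 (log2 fold change, SE). Other calls of the list are not given here, and the part of any of these genes in the fall of the members was not tested. Eif4ebp1, the mTORC1-controlled brake on cap binding, was called lower in p53-/- co-culture at -0.71 ± 0.15 and higher with p53 loss alone at 0.57 ± 0.15, and Mxd4 was called lower with p53 loss alone at -0.73 ± 0.20. The median of the list was -0.08 in p53+/+ and -0.11 in p53-/- co-culture.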

How the data were processed

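Libraries were poly(A)-selected and stranded. The authors aligned reads to mm9 with TopHat2 2.0.11 and deposited gene counts made with HTSeq 0.6.1, per the labels. The table names each column by a group code and a number, here called the experiment. How libraries were drawn from separate animals is not given in the sources used here, so p-values measure the spread between these libraries. Counts were tested in edgeR 4.0.16 (R 4.3.3; TMM scaling, filterByExpr, quasi-likelihood test, all 12 libraries, Benjamini-Hochberg over 13745 genes, threshold 0.05). CPM are TMM-scaled counts, and ratios by experiment used log2(CPM + 1). DESeq2 1.42.0 and other settings were alternatives. Same-numbered libraries are pairs by the study's key: over 18 same-numbered pairs, deviations from group means correlated at 0.128 to 0.618 (different numbers, 36 pairs, -0.608 to 0.241). Members and lists were chosen with earlier results of these data known. Genes named were, per comparison, the 8 called members with the largest change in each direction (mean log2 CPM of at least 2, same sign in 3 experiments), fixed paralogue pairs and role genes, near-zero members, and up to 4 called genes per list; a few genes that the rule names are not reported here. The fit was tested on simulated data. Coordinates come from another build than mm9 and apply to the printed sequences only.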

Additional observations from a re-analysis of the deposited data

How the results depend on the processing

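Leaving aside the scaling to the summed members, which centres the members near 0 by construction, no median fold change of the members changed sign in any setting run, and the counts of members called higher in co-culture and called in the interaction were 0 throughout. Among the named genes, Rpl22l1 changed sign: with a library or experiment left out, its log2 fold change with p53 loss alone ran from -0.41 to 0.0645 and its interaction from -0.34 to 0.20. Members called lower in p53+/+ co-culture numbered 39 at a threshold of 0.01 and 29 to 67 when a library or experiment was left out, with a median of -0.59 to -0.43, and in p53-/- co-culture 48 to 77. Members called higher with p53 loss alone numbered 11 with DESeq2 size factors, 8 with upper-quartile scaling, 11 with at least 10 counts in every library, 32 in DESeq2, 46 with the replicate block in edgeR, 56 with the block in DESeq2, 0 with only the groups compared, 0 at a threshold of 0.01 and 0 to 18 with a library or experiment left out, and both DESeq2 fits called 1 lower. In co-culture they numbered 8 with library size alone, 10 in DESeq2, 11 with the block in edgeR, 17 with the block in DESeq2, 2 with only the groups compared, 0 at a threshold of 0.01 and 0 to 4 with a library or experiment left out, and the 1 called lower became 0 at a threshold of 0.01 and 0 to 1 with a library or experiment left out. For most of these settings the share of all genes called was not counted, so these counts of members stand without a background. The causes were not tested. Relative to the summed members, an alternative added after seeing the data, the block gave 2 called lower with p53 loss alone (Rpl22l1 and Rps27l), Rps4l was called higher in co-culture in both genotypes, leave-out fits gave 0 to 1 in each pairwise comparison, and the lone p53+/+ co-culture call was Rpl22 without the library of 25_9. The share of counts in p53-/- co-culture was 3.16% without the 10 most abundant genes.

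Counts limit the report to members with enough reads, since 8 of 87 were near 0. With 3 libraries a group, the median SE of a member was 0.14 log2 units in the pairwise comparisons and 0.19 in the interaction. Reads shared with pseudogenes leave single-gene levels uncertain where the shared fraction is high.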
